A study of Arabidopsis thaliana with 6 samples.

Results

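The genes described here are 41 genes for proteins of the cytosolic ribosome of Arabidopsis thaliana, 29 of the large subunit and 12 of the small subunit. They were chosen by locus identifier, as a list of 41 loci that names proteins of both subunits, from the 32389 genes with counts in the deposited table. All 41 were among the 18736 genes that passed the filter on low counts, so none was lost to it. The data are poly(A) RNA sequencing of 6 libraries of germinating seeds, 3 of scl30a-1 and 3 of the wild type (WT, Col-0), both in the Columbia background. The scl30a-1 line is a mutant of SCL30a, which encodes a serine/arginine-rich splicing factor, and it is the only allele in the series. Batches of 50 mg of seeds were kept at 4 °C for 3 days (stratification, a cold treatment that promotes germination) and then grown at 21 °C in continuous white light of 100 µmol/m2 for 18 h. The labels call the samples seeds in their titles and whole seedlings in the extraction protocol. The triplicates are stated to be biological, but no harvest, seed lot or sequencing batch is named, and these cannot be told apart from genotype.

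The cytosolic ribosome translates the mRNAs made in the nucleus. Its proteins and rRNAs are joined in the nucleolus and cytoplasm with the help of many assembly factors that do not stay in the finished particle. In Arabidopsis each ribosomal protein is encoded by a small family of related genes (paralogs), and the dry seed must resume making ribosomes as it germinates. The TOR kinase, a nutrient sensor, is known to promote the making of ribosomes, and S6 kinase, which it activates, phosphorylates the small subunit protein RPS6. Many ribosomal protein genes of Arabidopsis carry short promoter elements known as the telo box and site II, and TCP transcription factors bind site II.

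The promoters of 3 of the genes are shown as examples that carry site II elements. RPL3A is among the 3 highest of the 41 genes in level per length, RPL13B carried both elements, and RPP1A had the largest spread between libraries. RPL19A, the highest of the 41 in level per length, had neither element in the 250 bases before its start and is not shown. Each run is the 250 bases before the annotated start of the gene, 5′ to 3′ on the strand of the gene, in the TAIR10.1 assembly of RefSeq. Capitals mark the telo box AAACCCTA and site II elements TGGGCC or TGGGCT on either strand.
RPL3A, chr1:16266303-16266552, plus strand: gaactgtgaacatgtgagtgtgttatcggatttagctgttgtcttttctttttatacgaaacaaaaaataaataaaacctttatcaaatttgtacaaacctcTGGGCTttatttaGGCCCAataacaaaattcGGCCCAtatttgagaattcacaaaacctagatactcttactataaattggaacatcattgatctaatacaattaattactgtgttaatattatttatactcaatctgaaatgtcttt
RPL13B, chr3:18168701-18168950, minus strand: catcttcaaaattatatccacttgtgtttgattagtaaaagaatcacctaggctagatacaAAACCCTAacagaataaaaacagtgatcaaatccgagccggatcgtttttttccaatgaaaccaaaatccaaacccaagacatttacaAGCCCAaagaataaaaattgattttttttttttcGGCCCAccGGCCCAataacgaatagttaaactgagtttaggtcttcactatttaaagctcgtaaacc
RPP1A, chr1:51211-51460, minus strand: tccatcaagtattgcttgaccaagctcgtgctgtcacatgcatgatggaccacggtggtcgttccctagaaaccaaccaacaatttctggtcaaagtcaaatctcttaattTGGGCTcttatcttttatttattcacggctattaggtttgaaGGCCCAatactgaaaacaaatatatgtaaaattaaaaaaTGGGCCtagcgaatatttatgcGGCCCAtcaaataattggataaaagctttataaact

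A site II element stood in 27 of the 41 promoters (65.9%), against 19.2% of the 27443 protein-coding promoters of the same length. A telo box stood in 6 of the 41 (14.6%), against 4.49% of all promoters, and 4 promoters held both. The 250 bases end at the annotated start. With the 50 bases after it added, the shares were 82.9% of the 41 against 21.7% of all promoters for site II, and 43.9% against 6.22% for the telo box. By element in the 250 bases alone, the median log2 fold change (scl30a-1 over WT) was -0.10 over the 27 genes with a site II element and -0.11 over the 14 without. It was -0.16 over the 6 genes with a telo box in those 250 bases and -0.10 over the 35 without. In the longer window 34 of the 41 had a site II element and 18 a telo box. Some genes counted here as without an element thus carry it just after the start. A match describes the letters of the window only.

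The labels were checked with the mutated gene. SCL30a (AT3G13570) had 478, 440 and 458 counts in libraries a, b and c of scl30a-1, against 6890, 7290 and 8425 counts in libraries a, b and c of WT. Total counts were 77817191 to 85605647 in the scl30a-1 libraries and 70687361 to 84356746 in the WT libraries. The 9 seed storage and maturation markers were all called higher in scl30a-1 and together took 0.992 ± 0.0583% of its counts, against 0.136 ± 0.0153% in WT (SD, n = 3 each). Their summed share was 0.945% to 1.06% in the scl30a-1 libraries and 0.124% to 0.153% in the WT libraries. Of 2 endosperm markers, EPR1 was called higher and EXPA2 was not (log2 fold changes 1.66 and 0.12, edgeR adjusted p = 3.81e-06 for EPR1). Together they took 0.207% to 0.213% of counts in the scl30a-1 libraries and 0.153% to 0.159% in the WT libraries. In whole seeds, fewer cells of a type and less RNA per cell cannot be told apart, and the part of such differences in the ribosomal protein results was not tested.

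Taken as a group, the 41 genes lay slightly lower in scl30a-1, by an amount close to the spread between libraries. The fitted log2 fold change was below 0 for 39 genes and above 0 for RPL24B and RPL5B, with a range from -0.21 to 0.03. The median was -0.11, which is 92.6% of the WT level, while the median of all genes tested was 0.0027. By edgeR's quasi-likelihood test with adjustment over all genes tested, 5 of the 41 genes (12.2%) were called lower and 0 higher. Among all genes tested, 19.7% were called lower, 21.9% higher and 41.7% in either direction, so in this fit the share called lower among the ribosomal protein genes was below that of all genes. The order was reversed, with the share of the 41 above that of all genes, without composition scaling, with the upper quartile, with DESeq2, with the length trend removed, with a block by library letter and without scl30a-1 library b; the shares were about equal without WT library c. Without adjustment, 9 of the 41 had a p under 0.05. The share among all genes was at least 41.7%, since every called gene also has a p under 0.05. The 5 calls were 3 of the 29 large subunit genes (median log2 fold change -0.11) and 2 of the 12 small subunit genes (median -0.10).

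**Figure D1:**
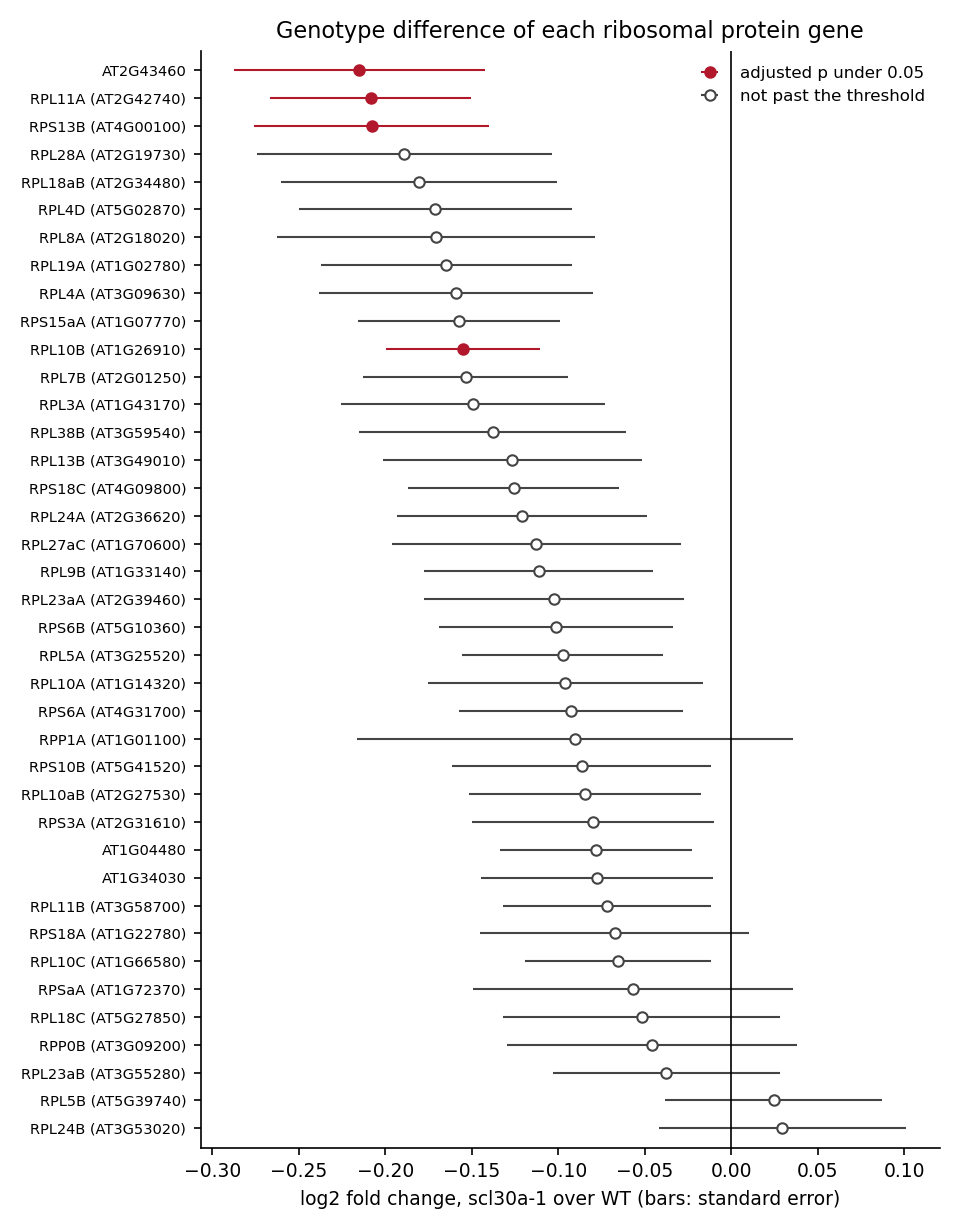
Log2 fold change, scl30a-1 over WT, of 39 of the 41 ribosomal protein genes, with bars for the standard error of the fit (3 libraries per genotype) and filled points for an adjusted p under 0.05. The values run from -0.21 to 0.03, and 37 of the 39 lie below 0.

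Of the proteins around the 5S rRNA of the large subunit, RPL11A passed the test. RPL11 and RPL5 bind this rRNA and enter the ribosome with it. RPL11A (AT2G42740, chr2:17791692-17793142, 5 exons) had 42.7, 46.9 and 40.7 CPM (counts per library size, TMM-scaled) in libraries a, b and c of scl30a-1, against 51.4, 50.7 and 48.5 CPM in libraries a, b and c of WT. The scl30a-1 libraries all lay below the WT libraries. The log2 fold change of -0.21 (SE 0.0581) had an edgeR adjusted p = 0.0163. Of its transcript, 10.2% of the 36-base words also occur in its paralog RPL11B, so the division of reads between them is uncertain to that extent. RPL11B (AT3G58700) had 108, 119.8 and 103 CPM in scl30a-1 and 120.0, 116 and 112 CPM in WT, which overlapped (log2 fold change -0.07, edgeR adjusted p = 0.372).

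RPL5A (AT3G25520, named ATL5 in the table) had the smallest spread of the 41 genes within a genotype, in WT. It had 1226, 1256 and 1133 CPM in scl30a-1, against 1304, 1269 and 1294 CPM in WT. The scl30a-1 libraries lay below the WT libraries, but the difference did not pass the test (log2 fold change -0.10, edgeR adjusted p = 0.208). Its paralog RPL5B (AT5G39740) had 1012, 1069 and 928 CPM in scl30a-1 and 1010.2, 978 and 971 CPM in WT. These values overlapped, with the lowest and the highest both in scl30a-1, and the log2 fold change was 0.02 (edgeR adjusted p = 0.778).

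RPL10, which joins the large subunit late in its maturation, has 3 genes, and RPL10B passed the test. RPL10B (AT1G26910, chr1:9321650-9323028, 2 exons) had 57.3, 60.7 and 57.4 CPM in libraries a, b and c of scl30a-1, against 65.9, 65.7 and 63.9 CPM in libraries a, b and c of WT. All scl30a-1 libraries were below all WT libraries. The log2 fold change of -0.16 (SE 0.0447) had an edgeR adjusted p = 0.0188. RPL10A (AT1G14320, SAC52 in RefSeq), the most abundant gene of the family, had 1303, 1548 and 1324 CPM in scl30a-1 and 1567, 1510.3 and 1384 CPM in WT. Its scl30a-1 library b lay above WT libraries b and c, and the difference did not pass the test (log2 fold change -0.10, edgeR adjusted p = 0.364). RPL10C (AT1G66580) stood at 95.6% of WT (edgeR adjusted p = 0.362).

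RPL38, a small protein of the large subunit, is encoded by 2 genes that share no 36-base word. The table gives both the name RPL38B, so the gene AT2G43460 is given by its locus. AT2G43460 (chr2:18045965-18047401, 3 exons) had 277, 297 and 258 CPM in libraries a, b and c of scl30a-1, against 351, 316 and 298 CPM in libraries a, b and c of WT. The groups were separated by the narrow gap between scl30a-1 library b and WT library c. The log2 fold change of -0.21 (SE 0.0724) had an edgeR adjusted p = 0.0368, the largest in size of the 41 genes. Its paralog RPL38B (AT3G59540) had 272, 296 and 256 CPM in scl30a-1, overlapping the 336, 288 and 282 CPM in WT (log2 fold change -0.14, edgeR adjusted p = 0.182).

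In the small subunit, RPS13B passed the test. RPS13B (AT4G00100, chr4:36916-38384, 5 exons, RPS13A in RefSeq) had 635, 703 and 609 CPM in libraries a, b and c of scl30a-1, against 783, 761 and 705 CPM in libraries a, b and c of WT. All scl30a-1 libraries lay below WT, but library b lay only just below WT library c. The log2 fold change of -0.21 (SE 0.0679) had an edgeR adjusted p = 0.0325. An overlapping gene, AT4G00090, shares part of this span, and the use of strand in counting is not stated.

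The small subunit genes that follow did not pass the test. RPS6A (AT4G31700) and RPS6B (AT5G10360), for the protein that S6 kinase phosphorylates, stood at 93.8% and 93.2% of WT (edgeR adjusted p = 0.282 and 0.258). RPS15aA (AT1G07770) missed the threshold closely, with 273, 295 and 260.5 CPM in scl30a-1 against 318, 311 and 295 CPM in WT (log2 fold change -0.16, edgeR adjusted p = 0.0529). The 3 genes for RPS18, RPS18A, RPS18C and AT1G34030, stood at 95.4%, 91.7% and 94.8% of WT, RPS3A at 94.6%, RPS10B at 94.2% and RPSaA at 96.2%. Without scl30a-1 library c, the log2 fold change of RPSaA was 0.0063.

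RPP0 and RPP1 form the stalk of the large subunit, which recruits the GTPase translation factors. RPP1A (AT1G01100) had the largest spread of the 41 genes, with 342, 415 and 296 CPM in scl30a-1 and 425, 378 and 318 CPM in WT. Both genotypes ranged more widely than they differed (log2 fold change -0.09, SE 0.126, edgeR adjusted p = 0.599). RPP0B (AT3G09200) had 2160.2, 2596 and 2159 CPM in scl30a-1 and 2486, 2427 and 2227 CPM in WT, with the highest value in scl30a-1 library b (log2 fold change -0.05, edgeR adjusted p = 0.690).

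Levels of different genes were compared per length, as CPM divided by the annotated transcript length in kilobases. The highest were RPL19A (AT1G02780), whose protein takes part in a bridge between the subunits, with 1903 ± 161 CPM per kilobase in scl30a-1 and 2133 ± 86.5 CPM per kilobase in WT (SD, n = 3 each), and RPL3A (AT1G43170, ARP1 in the table), whose protein reaches towards the catalytic centre, with 1846 ± 163 in scl30a-1 and 2047 ± 92.5 in WT. These neighbours did not differ beyond their spread. RPP0B followed with 1579 ± 173 CPM per kilobase in scl30a-1 and 1630.0 ± 92.8 CPM per kilobase in WT. The lowest levels belonged to RPL11B with 105 ± 8.07 CPM per kilobase in scl30a-1 and 110.1 ± 3.87 in WT, RPL10B with 62.2 ± 2.03 in scl30a-1 and 69.2 ± 1.19 in WT, and RPL11A with 51.3 ± 3.77 in scl30a-1 and 59.3 ± 1.84 in WT. RPL11A and RPL10B, the lowest in level, are also the 2 calls with the smallest adjusted p. In CPM, RPL3A had 3069.8, 3534 and 3019 in scl30a-1 and 3609, 3686 and 3377 in WT, and RPL19A had 2029.8, 2315 and 1986 in scl30a-1 and 2440.2, 2399 and 2257 in WT. For both genes scl30a-1 library b exceeded WT library c, and neither passed the test (edgeR adjusted p = 0.146 for RPL3A and 0.0957 for RPL19A).

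The other large subunit genes lay below the WT level except RPL24B. RPL18aB, RPL28A, RPL4A, RPL4D, RPL8A and RPL7B had 87.7% to 89.9% of the WT level without passing the test. RPL4 lines the tunnel through which the new protein leaves, and RPL8 lies near the catalytic centre. RPL9B, RPL10aB, RPL13B, RPL18C, RPL23aA, RPL23aB, RPL24A, RPL27aC and AT1G04480, which the table names RPL23C, had 91.6% to 97.4%. RPL24B (AT3G53020, STV1 in RefSeq), whose loss is known to impair translation of mRNAs with upstream open reading frames, had 668, 766 and 653 CPM in scl30a-1 and 712, 689 and 643 CPM in WT, which overlapped (log2 fold change 0.03, edgeR adjusted p = 0.766). Reads of RPL9B and RPL18C are the least certain, as 58.2% and 18.1% of their 36-base words occur in other transcripts.

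The spread between scl30a-1 libraries was about as large as the genotype difference. The median SD of log2 CPM over the 41 genes was 0.120 in scl30a-1 and 0.0707 in WT, and it was larger in scl30a-1 for 38 of the 41. Among the 4982 genes with mean CPM in the range of the 41 genes, the median SD was 0.0665 in scl30a-1 and 0.0591 in WT. The difference between genotype means exceeded the larger of the 2 SDs for 21 of the 41 genes (51.2%), against 64.9% of genes in that range of CPM. It exceeded 2 times that SD for 3 of the 41 (7.32%), against 40.1%. All scl30a-1 libraries lay below all WT libraries for 7 of the 41 genes (17.1%) and above them for 0, where 25.2% of all genes tested lay below, 26.9% above and 52.1% on either side. The 7 were RPL11A, RPL10B, RPS13B, AT2G43460, RPS15aA, RPL7B and RPL5A.

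**Figure D2:**
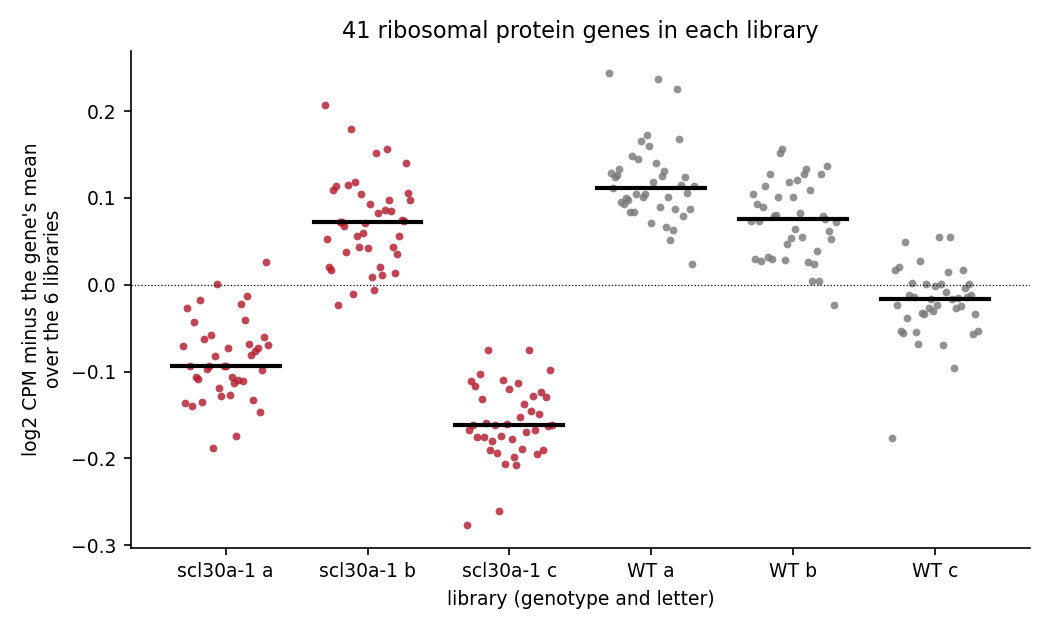
Log2 CPM of each of the 41 ribosomal protein genes in each library, minus the gene's mean over the 6 libraries. Black bars are medians over the genes, at -0.09, 0.07 and -0.16 for libraries a, b and c of scl30a-1 and at 0.11, 0.08 and -0.02 for libraries a, b and c of WT. Library b of scl30a-1 stands with WT rather than with libraries a and c of its own genotype.

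This spread was shared by nearly all the genes and followed the library. Within scl30a-1, library b was the highest for 41 of the 41 genes and library c the lowest for 37. Within WT, library a was the highest for 33 and library c the lowest for 40. The median log2 difference between libraries b and c of scl30a-1 was 0.22 and that between libraries a and c of WT was 0.13, beside a median difference of -0.11 between the genotype means. Transcript length moved with this order within each genotype. The transcripts of the 41 genes had a median length of 1081 nt (595 to 1738 nt), against 1754 nt for the genes tested. Across all genes with a length, the Spearman correlation of a library's deviation with transcript length was 0.03, -0.28 and 0.09 in libraries a, b and c of scl30a-1, and -0.18, 0.04 and 0.29 in libraries a, b and c of WT. Within each genotype, the library with the highest ribosomal protein genes had the lowest correlation, and the one with the lowest had the highest. Across genotypes the orders differed, since the genes lay high in WT library b at a correlation near 0. The correlations run across genes and not across replicates.

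The number of calls depended on single libraries. Without scl30a-1 library b, 26 of the 41 genes were called lower, beside 20.7% of all genes. Without scl30a-1 library a or c, 0 were called lower, beside 15% and 16.9% of all genes, and 5 and 2 of the 41 had an unadjusted p under 0.05. Of all genes, at least 32.7% and 34.4% had such a p, these being the shares called in either direction. Without WT library a or b, 0 were called, beside 16.3% and 14.4% of all genes. An unadjusted p under 0.05 was found for 2 and 4 of the 41, against at least 34.5% and 30.9% of all genes. Without WT library c, 8 were called, beside 19.5%. With the trend on transcript length removed from each library, 30 were called lower, beside 23.8% of all genes. The test across counts of DESeq2 called 9 lower, beside 19.6% of all genes.

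Scaling moved the count as well. Without composition scaling 22 of the 41 were called lower, beside 24.5% of all genes, and with upper-quartile scaling 17, beside 28.1%. These scalings also moved the median of all genes, to -0.04 without composition scaling and -0.07 with the upper quartile. The median of the 41 genes relative to that of all genes was -0.11 under each of the 4 scalings, and RPL24B and RPL5B were below 0 without composition scaling, with the upper quartile and with the length trend removed. In none of the 15 alternative fits was any of the 41 genes called higher. RPL11A, RPL10B, RPS13B and AT2G43460 were called in 11 of the 15, and the 4 that lost them were the fits without scl30a-1 library a, scl30a-1 library c, WT library a or WT library b.

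**Figure D3:**
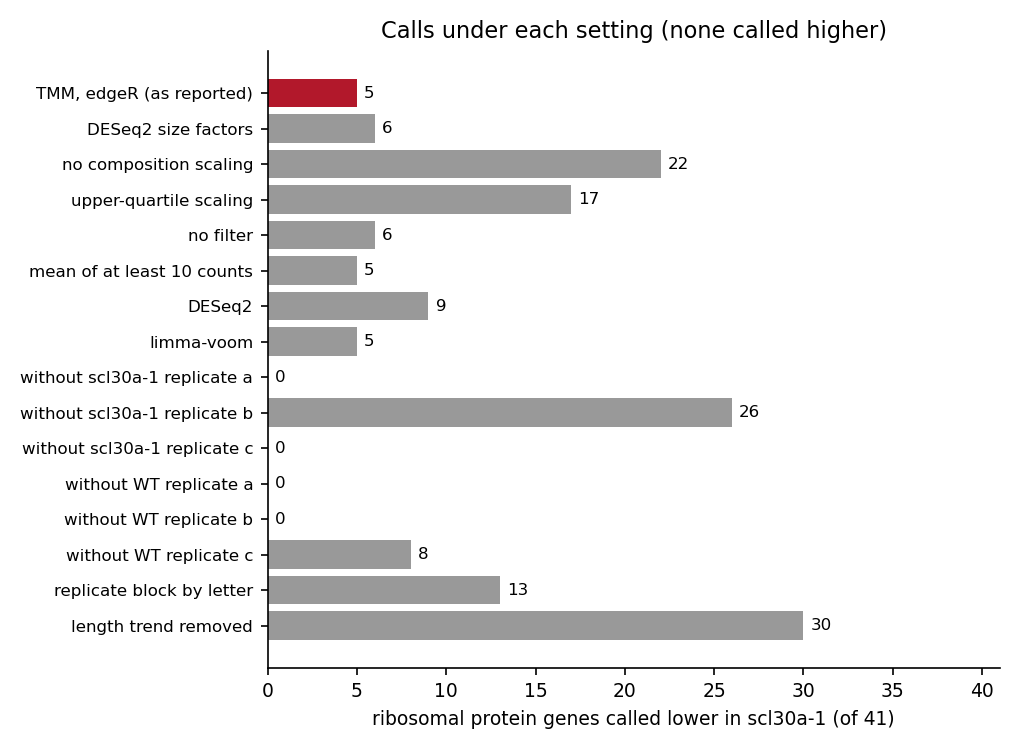
Number of the 41 ribosomal protein genes called lower in scl30a-1 (adjusted p under 0.05) in the fit as reported and in each of 15 alternative fits. The count is 5 as reported and runs from 0 to 30.

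As a share of all counts, which uses no composition scaling, the 41 genes took 3.57%, 3.87% and 3.42% in libraries a, b and c of scl30a-1, against 4.18%, 4.10% and 3.89% in libraries a, b and c of WT. The highest scl30a-1 library was just below the lowest WT library. The mean share was 3.62 ± 0.231% in scl30a-1 and 4.06 ± 0.150% in WT (SD, n = 3 each), a difference of -0.44 percentage points. For 3 libraries against 3 the smallest two-sided p of an exact permutation test is 0.1, so this share could not pass a threshold of 0.05. After TMM scaling the summed CPM of the 41 genes was 35747, 40532 and 34303 in scl30a-1 and 41372, 40628 and 37754 in WT, and the groups overlapped. The seed markers, whose share was higher in scl30a-1 by 0.86 percentage points, are part of the same totals. Their part in the lower share of the 41 genes was not tested.

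The balance between paralogs was measured as each gene's share of the counts of its family within a library, which no scaling affects. The 41 genes belong to 29 families with at least 2 measured genes. For 19 of the 41 (46.3%) the shares of the scl30a-1 libraries did not overlap those of WT, 8 above and 11 below, where 52% of the 75 genes of these families did not overlap. The 75 include the 41. In a family of 2 genes the shares mirror each other, so both genes carry the same result. Both counts therefore hold repeated results, for example in RPL24 and RPL5, where both genes are among the 41. The differences were small, at most 2.68 percentage points, and each test was limited to an exact permutation p of at least 0.1.

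**Figure D4:**
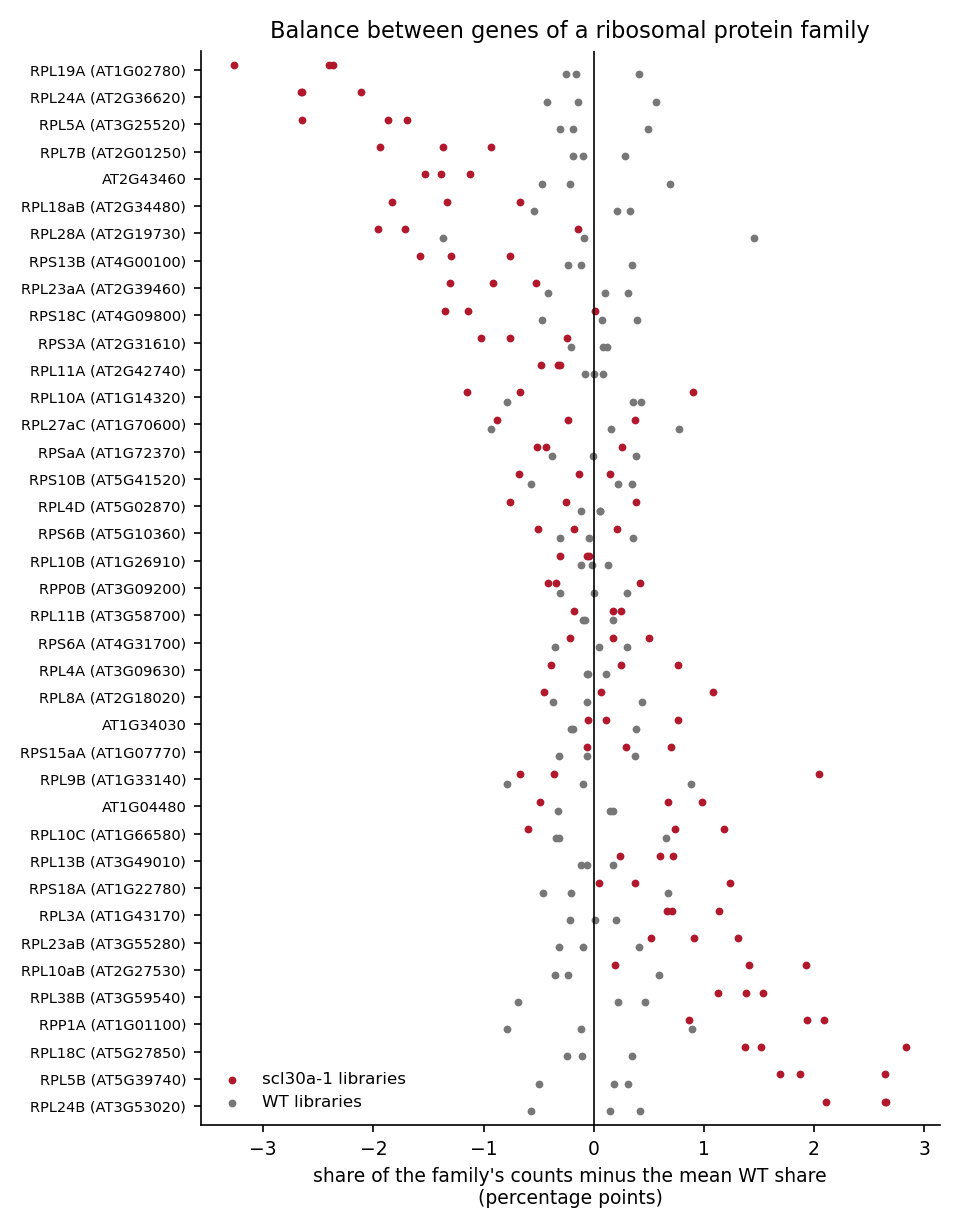
Share of each of 39 genes in the counts of its family, minus the mean WT share, in percentage points, for the 3 scl30a-1 libraries (red, upper row of each gene) and the 3 WT libraries (grey, lower row). The largest difference is that of RPL19A, and all differences are within 2.68 points of 0.

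Among the families, the largest difference was in RPL19. RPL19A held 76.1%, 77.0% and 77.0% of the family in libraries a, b and c of scl30a-1, against 79.1%, 79.8% and 79.2% in libraries a, b and c of WT. Its paralog RPL19C (AT4G02230) was called higher in scl30a-1 and averaged 299.9 ± 24.7 CPM there, against 262 ± 12.2 CPM in WT (log2 fold change 0.20, edgeR adjusted p = 0.0384). RPL24 was next: RPL24B held 61.4%, 62.0% and 62.0% in scl30a-1, against 58.8%, 59.8% and 59.5% in WT, and RPL24A the rest. RPL5B held 45.2%, 46.0% and 45.0% in scl30a-1, against 43.7%, 43.5% and 42.9% in WT, and RPL5A the rest. In each of these families the groups were well apart relative to their spread.

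Other families shifted less. RPL18C averaged 48.0% in scl30a-1 and 46.1% in WT, and RPL38B (AT3G59540) 49.7% and 48.4% in the same order of genotypes. RPL23aB averaged 28.5% in scl30a-1 and 27.6% in WT. RPL3A averaged 94.9% in scl30a-1 and 94.1% in WT, beside its minor paralog RPL3B (AT1G61580), which was called lower at 171 ± 5.51 CPM in scl30a-1 against 224 ± 2.87 CPM in WT (log2 fold change -0.39, edgeR adjusted p = 0.000122). RPL13B averaged 75.0% in scl30a-1 and 74.5% in WT. Shares that were lower in scl30a-1 were those of RPL7B, 47.5% there and 48.9% in WT, RPL18aB, 76.0% and 77.3% in the same order, RPS13B, 48.5% in scl30a-1 and 49.7% in WT, and RPL11A, 4.08% in scl30a-1 and 4.45% in WT. RPL23aA, AT2G43460 and RPS3A were also lower.

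The other genes of the cytosolic ribosome lay at about the same place. Of 169 genes tested outside the 41, 15 were called lower and 4 higher. Together these are 11.2% of the 169, against 41.7% of all genes (19.7% lower and 21.9% higher). The median log2 fold change of the 169 was -0.10, and 142 were below 0. RPP0A (AT2G40010) fell to 60.5 ± 0.488 CPM in scl30a-1, against 75.2 ± 4.17 CPM in WT (log2 fold change -0.32, edgeR adjusted p = 0.000747), and RPL10aC (AT5G22440) to 439 ± 9.37 CPM, against 519 ± 8.53 CPM in WT (log2 fold change -0.24, edgeR adjusted p = 0.00278). RPS23A (AT3G09680) averaged 7.89 ± 0.132 CPM in scl30a-1 and 10.7 ± 0.543 CPM in WT (log2 fold change -0.44, edgeR adjusted p = 0.000361). In the other direction, RPS9C (AT5G39850) averaged 192 ± 14.4 CPM in scl30a-1 and 140.3 ± 5.83 CPM in WT (log2 fold change 0.45, edgeR adjusted p = 0.000309), and RPL27A (AT2G32220) 64.8 ± 7.50 CPM in scl30a-1 and 47.9 ± 3.75 CPM in WT (log2 fold change 0.44, edgeR adjusted p = 0.00249). Without scl30a-1 library b, 76 of the 169 were called lower, beside 20.7% of all genes. With the length trend removed 116 were, beside 23.8% of all genes, so their count moved with the same choices as that of the 41. The share called lower was above that of all genes in these fits and below it in the fit as reported. The count called lower was 35 without WT library c, beside 19.5% of all genes. It was 6 or 7 without library a or c of scl30a-1 or library a or b of WT, beside 14.4% to 16.9%. No test of a difference between the 41 genes and these was made.

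Around the ribosome, the chloroplast ribosome lay below 0 and the assembly factors above it. Of 32 proteins of the chloroplast ribosome, which are encoded in the nucleus and translate chloroplast mRNAs after import, 21 were called lower and 0 higher (median log2 fold change -0.20). The protein AT3G27160, of the S21 family, fell to 64.2 ± 5.05 CPM in scl30a-1, against 90.9 ± 5.57 CPM in WT (log2 fold change -0.50, edgeR adjusted p = 0.000241). Of 33 ribosome assembly factors, 11 were called higher and 0 lower (median log2 fold change 0.11). Nucleolin NUC2 (AT3G18610) averaged 40.3 ± 0.123 CPM in scl30a-1 and 28.6 ± 1.18 CPM in WT (log2 fold change 0.49, edgeR adjusted p = 2.4e-05). REIL2 and REIL1, cytoplasmic assembly factors of the large subunit, had log2 fold changes of 0.31 and 0.30 (edgeR adjusted p = 0.000801 and 0.000881). Each of these counts, from the fit as reported, is to be read beside the 19.7% of all genes called lower and 21.9% called higher. The chloroplast count was 3 without scl30a-1 library a or WT library b, 5 without scl30a-1 library c and 4 without WT library a, with medians of -0.15 to -0.17. Of all genes, 15%, 14.4%, 16.9% and 16.3% were called lower in these fits, in the same order. The share of the chloroplast list was below each of them. It was above that of all genes without scl30a-1 library b (29 called, beside 20.7%) and without WT library c (27 called, beside 19.5%). The assembly count was 4 without WT library b, 5 without scl30a-1 library c and 7 and 6 without library a of scl30a-1 and of WT. Without WT library b, 3110 of 18872 genes were called higher, and without scl30a-1 library c 3312 of 18898, both larger shares than in the assembly list. The assembly count was 5 without composition scaling and 4 with the upper quartile, with the median above 0 under both. Of the 18736 genes tested, 3119 and 2961 were called higher under these scalings, again larger shares than in the list. With the length trend removed, 32 chloroplast ribosomal proteins were called lower and 19 assembly factors higher. In that fit 23.8% of all genes were called lower and 4869 of 18736 higher. Of 7 photosynthetic markers, 5 passed the filter and were tested, and 4 were called lower in scl30a-1. The summed share of the 7 was 0.0395% to 0.0482% of counts in the scl30a-1 libraries and 0.0471% to 0.0529% in the WT libraries, which overlapped. Their part in the chloroplast result was not tested.

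**Figure D5:**
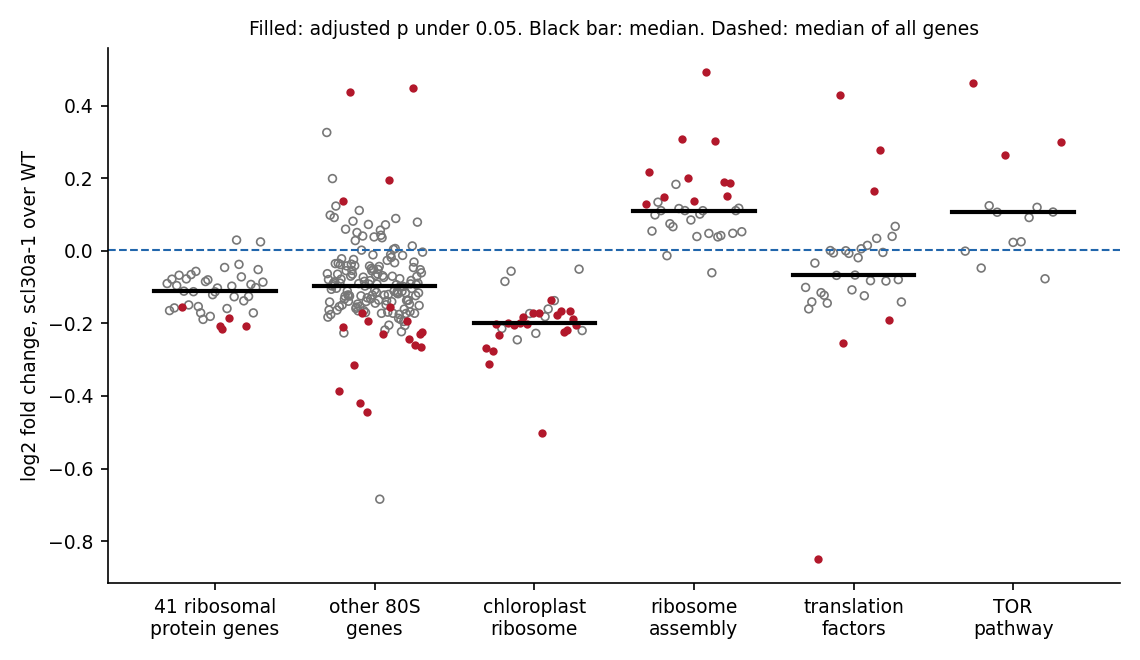
Log2 fold change, scl30a-1 over WT, of the genes tested in each list, with filled points for an adjusted p under 0.05, black bars for list medians and a dashed line for the median of all genes. The medians are -0.11 for the 41 ribosomal protein genes, -0.10 for the other cytosolic ribosomal protein genes, -0.20 for the chloroplast ribosome, 0.11 for ribosome assembly, -0.07 for translation factors and 0.11 for the TOR pathway list.

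The translation factors were mixed in direction, while the TOR pathway list had a median above 0. Of 32 translation factors, 3 were called higher and 3 lower (median log2 fold change -0.07), beside 21.9% and 19.7% of all genes. The cap-binding protein EIF4E (AT4G18040) averaged 127 ± 9.91 CPM in scl30a-1 and 105 ± 5.27 CPM in WT (log2 fold change 0.28, edgeR adjusted p = 0.00605), and ELF5A-3 (AT1G69410) had a log2 fold change of 0.43 (edgeR adjusted p = 0.00012). The poly(A)-binding protein PAB4 (AT2G23350) averaged 637 ± 20.1 CPM in scl30a-1 and 760.0 ± 20.1 CPM in WT (log2 fold change -0.26, edgeR adjusted p = 0.00332). The list called TOR pathway has 13 genes and also holds the transcription factors TCP20 and ANAC082. Of the 13, 3 were called higher (23.1%, near the 21.9% of all genes) and 0 lower (median log2 fold change 0.11). S6K2 (AT3G08720), a kinase of RPS6, averaged 22.3 ± 1.03 CPM in scl30a-1 and 16.2 ± 0.764 CPM in WT (log2 fold change 0.46, edgeR adjusted p = 0.000149). TCP20 (AT3G27010), a TCP factor known to bind site II elements, averaged 21.0 ± 0.371 CPM in scl30a-1 and 17.5 ± 0.818 CPM in WT (log2 fold change 0.26, edgeR adjusted p = 0.00278), and the third was AT5G63190. Without composition scaling, 12 translation factors were called lower and 2 higher, beside 24.5% of all genes called lower. Without scl30a-1 library b, 13 were called lower and 3 higher, beside 20.7% of all genes called lower. The share of translation factors called lower was above that of all genes in these fits and below it in the fit as reported. Without WT library c, 5 genes of the TOR pathway list were called higher, beside 3655 of all 18800 genes tested in that fit.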

How the data were processed

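The deposited values are raw counts of reads for each gene, per the file headers, on the genome build TAIR10, per the submitters' processing notes. The aligner, filters and use of strand are not given in the sources used here. Count columns name a genotype and a letter, so they were matched to genotype only. The other 6 columns of values, a length-scaled unit, could not be matched beside the counts and were not used. Levels per length and the 3 highest and lowest genes were therefore taken from CPM per kilobase of annotated transcript, in place of that unit. Of 33602 genes, 1213 had no value.

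Counts were fitted with edgeR 4.0.16 (R 4.3.3; TMM scaling, filterByExpr with a minimum count of 10, quasi-likelihood F test with genotype as the only term). Adjustment was by Benjamini-Hochberg over all 18736 genes tested, and an adjusted p under 0.05 was called. The script was tested on simulated data. Alternatives used limma 3.58.1, DESeq2 1.42.0, other scalings and filters, each library left out and a loess length trend (span 0.4) removed per library. A CPM is a count scaled to a common library size, and a floor of 3 counts was 0.035 to 0.0424 CPM, for counting error only. P-values measure only the spread between these libraries.

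The table gives no coordinates. Coordinates, transcript lengths and promoters were read from RefSeq's TAIR10.1. Lengths were found for 18648 of the genes tested.

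The 41 genes and all lists were chosen with earlier results of these data known. Values per library are given for called genes (at most 6 per direction), the 3 highest and 3 lowest in level per length, the largest and smallest SD and SCL30a. Of the genes whose family share did not overlap, some are given per library, and the others as mean shares or by direction only. Other lists name at most 3 called genes per direction. RPS15aA and RPL10A were also given values per library, chosen after these were seen. One locus listed as a paralog, AT3G48130, is annotated as a pseudogene and was dropped. Values of 2 of the 41 genes, 1 of them called lower, are counted in the totals but not reported here one by one.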

Additional observations from a re-analysis of the deposited data

How the results depend on the processing

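For the 41 genes, the median log2 fold change kept its sign in all 15 alternative fits, from -0.18 to -0.07, but the number called lower did not keep its size. It was 22 without composition scaling, 17 with upper-quartile scaling, 9 with DESeq2, 30 with the length trend removed, 0 at an adjusted p under 0.01 and 0 at a fold of at least 1.5, and 0 to 26 with a library left out. With the replicate block by letter it was 13. Whether the letters pair the libraries is not known, and the main fit took them as unpaired. The correlations of same-letter deviations were -0.08, 0.24 and 0.25 for a, b and c. Libraries b and c of each genotype correlated best with their own letter, and libraries a did not. These few correlations cannot decide it. With the block, 8940 of all genes were called in either direction. Over all genes the calls were 5008 at an adjusted p under 0.01 and 2291 at a fold of at least 1.5, and 5824 to 8075 with a library left out. Fits and shares in the length-scaled unit were not run. Calls among other cytosolic ribosomal protein genes were 66 without scaling, 67 with the upper quartile and 9 to 78 with a library left out. Assembly factors had 5, 4 and 4 to 11, translation factors 14, 13 and 4 to 16, the chloroplast ribosome 3 to 29 and the TOR pathway list 3 to 5 with a library left out. These list counts are in either direction. Of all genes, 41.1% were called in either direction without scaling, 43.9% with the upper quartile and 30.9% to 42.8% with a library left out. The telo box and site II shares were 43.9% and 82.9% with the bases after the start. With a library left out, the log2 fold change ran from -0.226 to 0.0126 for RPP1A, -0.140 to 0.00419 for RPL18C, -0.0975 to 0.0132 for RPL23aB, -0.0448 to 0.0640 for RPL24B and -0.0228 to 0.0680 for RPL5B; it turned positive without scl30a-1 library c for RPP1A, RPL18C, RPL23aB and RPSaA (0.0063) and without WT library a for RPP1A, and negative without scl30a-1 library b for RPL24B and RPL5B and without WT library c for RPL24B. Without scaling RPL24B was at -0.0194 and RPL5B at -0.0240, with the upper quartile at -0.0384 and -0.0432, and with the length trend removed at -0.0676 and -0.00356. Of the other values of the genes given per library, over the alternatives other than the length trend, 274 kept direction and side of the threshold, 31 passed it anew and 20 no longer passed. The causes were not tested. The lowest count of the 41 genes in a library was 3155.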
